A study of Mus musculus with 12 samples.

Results

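The genes described here are 88 transcription factor genes that pattern the embryo and mark mesenchyme, out of 39032 genes in the deposited table. They were chosen by symbol alone: the numbered Hox genes of the Hoxa, Hoxb, Hoxc and Hoxd clusters, the numbered genes of the families of Six2, Meis1, Pbx2, Prrx1, Twist1, Irx1, Tbx1, Pax1 and Alx1, and Mkx, Scx and Neurog2. Of the 88, 25 were silent, meaning listed at 0 in all 12 libraries, and 27 were above 0 but too low to be tested. The other 36 reached at least 1 FPKM (fragments per kilobase of transcript, scaled to each library's mapped fragments) in at least 3 libraries and were tested.

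The cells were MC3T3-E1 subclone 14, a wild-type mouse pre-osteoblast line, so all results come from 1 clone of 1 line. They were grown for 5 days in osteogenic medium with ascorbic acid phosphate and β-glycerophosphate, which every arm received, Control included. The 4 arms, each of 3 independent biological replicates, were BMP2+RSPO2 (recombinant BMP2 at 100 ng/ml and RSPO2 at 200 ng/ml), BMP2 (100 ng/ml), RSPO2 (200 ng/ml) and Control (vehicle). BMP2 is a bone morphogenetic protein that signals through SMAD factors, and RSPO2 is a secreted protein that strengthens Wnt signalling. The study asked which transcripts each protein changes alone and in combination.

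Hox genes lie in 4 clusters whose gene order follows the body axis, so the set that a cell expresses is read as its position along that axis. PBX and MEIS proteins, homeodomain factors of the TALE class, bind DNA together with HOX proteins. PRRX1, TWIST1, ALX4, SIX2, IRX5, TBX2 and their relatives act in the mesenchyme of limb, face and skull. TWIST1 is known to hold back osteoblast maturation by binding RUNX2, SCX and MKX are factors of tendon, and NEUROG2 is a bHLH (basic helix-loop-helix) factor that starts neuronal differentiation.

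The 12 libraries carried the markers of the labelled cell type. The osteoblast genes Runx2 and Sp7 were at 21.2 and 61.8 FPKM or above in every library, and Ibsp at 232 FPKM or above. Myod1, Ptprc, Epcam and Plin1, which define skeletal muscle, leukocytes, epithelium and fat cells, were listed at 0 in all. Other markers of such cells were not all at 0. The macrophage gene Cd68 was at 0.59, 4.00 and 4.00 FPKM in BMP2+RSPO2, against 1.01, 1.01 and 0.52 FPKM in Control; it was not called (adjusted p = 0.111, limma) but was under quantile normalisation and without BMP2+RSPO2 replicate 1 (log2 change 1.45). Csf1r was above 0 in all 12 libraries (highest 0.77 FPKM), Adgre1 at 0 in all, and Krt18 reached 2.09 FPKM in BMP2+RSPO2 replicate 1. The part of such cells in the results was not tested. BMP2+RSPO2 replicate 1 stood apart: its FPKM summed to 635139, against 322074 to 380507 in the other 11 libraries, and its 10 most abundant genes took 57.8% of that sum, against 11.4% to 19.8%. Transcripts of RNA polymerase III genes made up 19.1% of it, against 0.179% to 2.30%. In the BMP2+RSPO2 arm the median log2 change of all 11548 tested genes was -0.26 against Control, -0.19 against BMP2 and -0.26 against RSPO2. Without BMP2+RSPO2 replicate 1 these medians were -0.22, -0.14 and -0.24. With all 12 libraries, quantile normalisation or median-of-ratios scaling between libraries brought the medians to between -0.04 and -0.01. Calls are therefore given below both as deposited and under these scalings.

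Promoter sequence was taken for 3 members whose levels the results turn on and whose windows hardly overlap an annotated UTR. The 250 bases upstream of the RefSeq start were read from the GRCm38.p6 table, 5′ to 3′ on the strand of the gene. They lie at chr3:127632886-127633135, plus strand, for Neurog2, at chr12:33957421-33957670, plus strand, for Twist1 and at chr17:85688255-85688504, minus strand, for Six2. Capitals mark the TATA-box core TATAA, searched on both strands and chosen after the sequences had been seen.
Neurog2: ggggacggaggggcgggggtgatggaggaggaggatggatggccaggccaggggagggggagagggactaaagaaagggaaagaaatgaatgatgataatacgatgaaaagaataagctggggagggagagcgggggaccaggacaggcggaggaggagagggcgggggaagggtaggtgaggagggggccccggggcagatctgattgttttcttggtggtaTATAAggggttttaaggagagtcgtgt
Twist1: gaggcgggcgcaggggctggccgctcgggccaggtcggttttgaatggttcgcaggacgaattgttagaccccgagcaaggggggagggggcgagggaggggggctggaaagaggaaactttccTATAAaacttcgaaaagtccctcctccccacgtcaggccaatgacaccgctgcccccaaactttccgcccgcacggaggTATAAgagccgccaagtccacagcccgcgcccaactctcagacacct
Six2: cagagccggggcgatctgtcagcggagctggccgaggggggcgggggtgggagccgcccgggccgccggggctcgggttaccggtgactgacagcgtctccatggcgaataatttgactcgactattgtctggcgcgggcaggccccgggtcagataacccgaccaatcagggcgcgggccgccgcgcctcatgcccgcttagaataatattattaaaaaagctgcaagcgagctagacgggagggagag
TATAA occurred 1 time in the Neurog2 window, from position -27 relative to the start, and 2 times in the Twist1 window. The Six2 window held none. TATAA was held by 22.8% of all 32851 promoters and by 11.4% of those of tested genes. GC content was 58.0% for Neurog2, 62.4% for Twist1 and 64.8% for Six2, against a median of 60.4% over promoters of tested genes. The TCF/LEF core CTTTGA, the GC-rich SMAD element GGCGCC and the E-box CANNTG, the motif of bHLH factors, were searched on both strands, and none was found in these 3 windows. No motif match overlapped another there. Promoters of 55 members, 62 windows in all, were in the table: 4 windows held CTTTGA (6.45%, against 13.8% of all promoters and 9.77% of those of tested genes), 10 held GGCGCC (16.1%, against 9.59% and 17.8%) and 31 held CANNTG (50.0%, against 66.2% and 55.5%). The median GC content was 59.6% for the members, 52.4% for all promoters and 60.4% for tested genes, and the part of base composition in these shares was not tested.

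The Hox genes gave a narrow pattern, with the Hoxa and Hoxb clusters transcribed at low level and Hoxd listed near 0. Of 38 Hox members, 13 were silent and 9 were tested. In Hoxd, 8 of 9 genes were silent and Hoxd8 did not exceed 0.05 FPKM. In Hoxc no gene was tested, and the highest value was 0.86 FPKM, for Hoxc6 in BMP2+RSPO2 replicate 2. The highest Hox gene was Hoxb9, with a mean of 5.77 FPKM over the 12 libraries and a range of 4.32 to 8.15 FPKM. Hoxa10 followed with a mean of 4.08 FPKM and Hoxb8 with 2.21 FPKM.

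By paralog number, both of the highest Hox genes, Hoxb9 and Hoxa10, fell in paralogs 9 and 10, where the other 5 of 7 members stayed under 1 FPKM in every library. Among the 9 members of paralogs 11 to 13, 7 were silent and none exceeded 0.54 FPKM, the value of Hoxb13 in BMP2 replicate 1. Hoxb13 averaged 0.156 FPKM, near the 0.193 FPKM of Hoxa9. Paralogs 4 to 8 reached 3.30 FPKM (Hoxb8) and paralogs 1 to 3 reached 1.56 FPKM (Hoxa2). Neighbouring paralogs differed widely: Hoxa9 averaged 0.193 FPKM beside Hoxa10 at 4.08 FPKM, and Hoxb7 averaged 0.0383 FPKM beside Hoxb8 at 2.21 FPKM. How the counting divided reads between overlapping Hox and antisense transcripts is not given in the sources used here, and the depth of the libraries is unknown, so a value of 0 carries no upper limit.

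**Figure D1:**
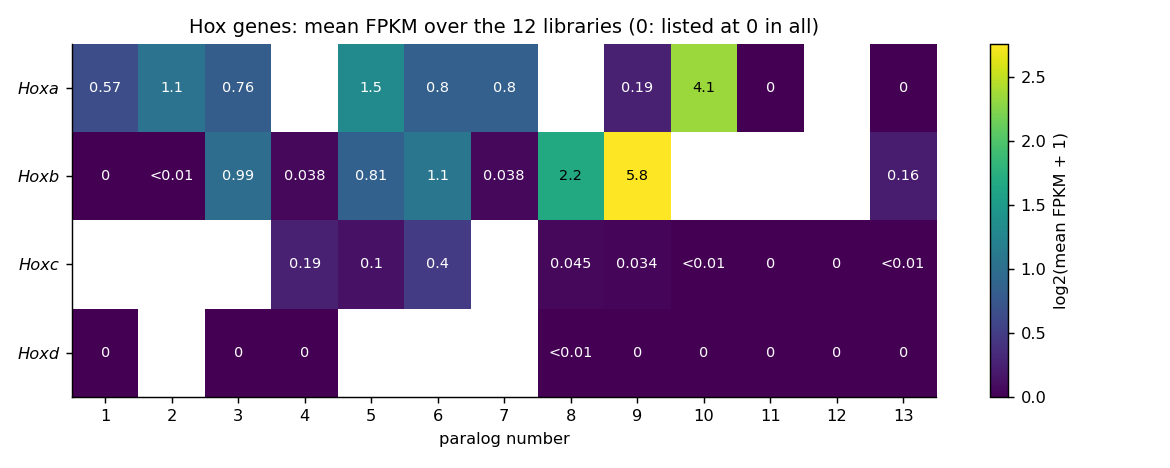
Mean FPKM over the 12 libraries for each Hox gene in the table, by cluster (rows) and paralog number (columns). Colour is on the log2(mean FPKM + 1) scale. White cells are positions for which the 38 Hox members include no gene. The highest cells are Hoxb9 at 5.77 and Hoxa10 at 4.08 FPKM, and 8 of the 9 Hoxd cells are 0.

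Outside the Hox clusters the mesenchymal factors were abundant. Prrx2 and Prrx1, paired-related homeobox genes of limb and skull mesenchyme, were the highest members, with means of 64.8 and 41.7 FPKM over all libraries. Six2 followed at 27.0, Twist1 at 25.9, Scx at 25.4, Irx5 at 23.1 and Irx3 at 22.4 FPKM. The ranges of these 5 over the libraries overlapped each other. Pbx2 averaged 14.4, Alx4 12.5, Meis3 12.1, Alx1 11.5 and Tbx15 10.8 FPKM. Pax3, a factor of somite and neural crest, was the highest of the Pax genes at 4.74 FPKM, and Pax1, Pax2, Pax4 and Pax7 were silent.

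Close relatives within a family were expressed very unequally. Twist2 stayed at or under 0.35 FPKM beside Twist1, and Pbx4 at or under 0.11 FPKM beside Pbx2. Genes that neighbour expressed members on the chromosome could be silent. Irx4 was silent beside Irx1 (mean 5.97 FPKM) and Irx2 (4.42 FPKM), and Irx6 was silent beside Irx3 and Irx5. Six3 was at or under 0.02 FPKM beside Six2. The limb-type T-box genes Tbx5 and Tbx4 were at 0 and at most 0.21 FPKM, beside Tbx3 (mean 0.647 FPKM) and Tbx2 (7.96 FPKM), their partners in the genome.

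**Figure D2:**
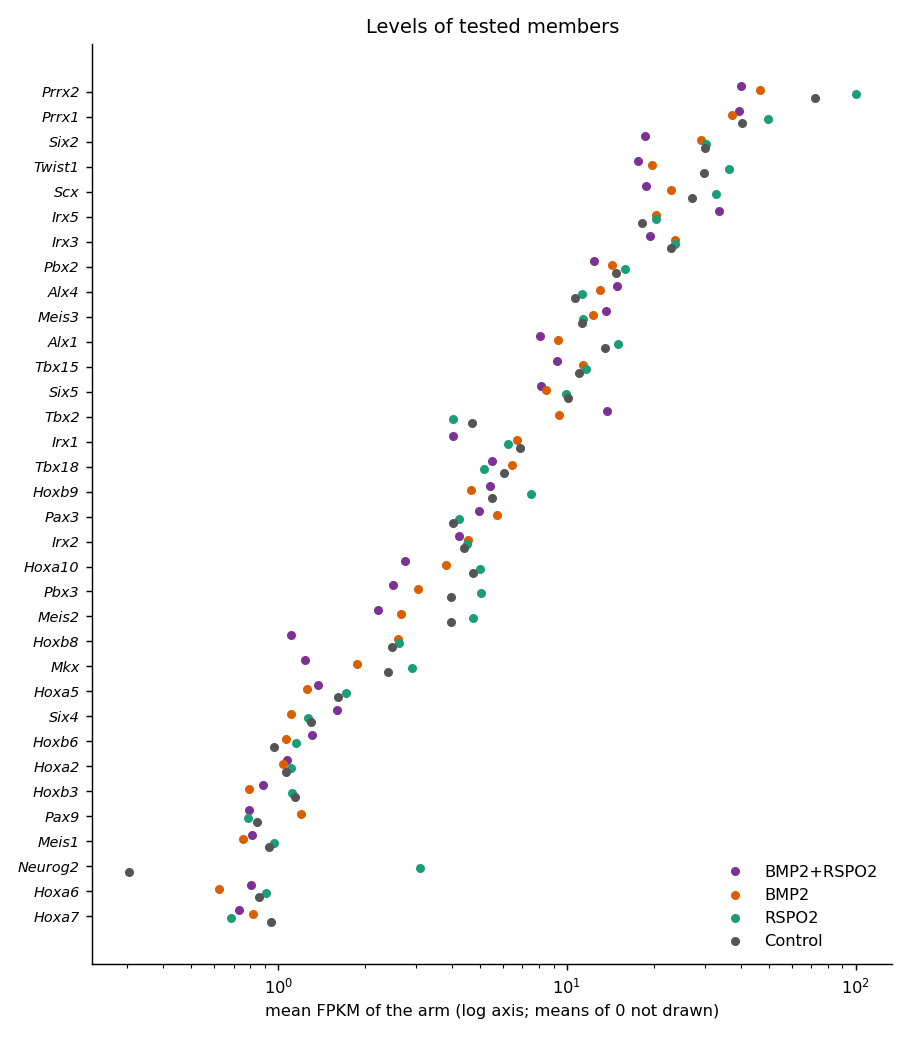
Mean FPKM in each arm (points, logarithmic axis) for 34 of the 36 tested members, sorted by their mean over all libraries. Prrx2 has the highest mean in every arm, with Prrx1 close to it in BMP2+RSPO2 (39.4 FPKM), and Neurog2 has a point only in RSPO2 (3.09 FPKM) and Control (0.303 FPKM), since means of 0 are not drawn.

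For RSPO2 against Control the member described first is Neurog2. It had 2.41, 2.83 and 4.04 FPKM in the RSPO2 libraries, against 0.61, 0.09 and 0.21 FPKM in the Control libraries, and the arms did not overlap. It was listed at 0 in all 6 libraries with BMP2, with or without RSPO2. The 3 RSPO2 libraries were also the only ones at 1 FPKM or more, so Neurog2 entered the model only through the arm where it was high. Its difference of 1.65 ± 0.19 (SE) on the log2(FPKM + 1) scale, which understates changes of low genes, is therefore given as a description of these libraries and not as a test. It was the 1 member of 36 that limma called here, beside 0.0779% of all tested genes (0.0606% higher and 0.0173% lower), and for the same reason nothing is read from that count. With a pseudocount of 0.1, or with any of 7 libraries left out, it was not called. Its level in RSPO2 was still low.

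Most of the neuronal and proneural genes followed were near 0, and Tubb3, Hes6, Cbfa2t2 and Cbfa2t3 were not. The neuronal markers Rbfox3 and Snap25 were listed at 0 in all 12 libraries, and Elavl3, Elavl4 and Neurod1 did not exceed 0.04 FPKM. Tubb3, a tubulin that dividing cells also make, was at 32.7 to 107 FPKM and, as deposited, was called in none of the 6 comparisons. After scaling Tubb3 was called higher in BMP2+RSPO2, against Control under quantile normalisation (log2 change 1.07) and against RSPO2 under both scalings (1.21 and 1.17). It had 88.6, 54.1 and 55.7 FPKM in BMP2+RSPO2, the first in the library that stands apart. As deposited and without that library it was called in neither comparison (0.54 against Control and 0.67 against RSPO2). Among 12 proneural partners and targets, Neurog1, Neurog3, Neurod2, Neurod4, Insm1, Eomes and Dll3 were at 0 in all libraries. The Notch ligand gene Dll1, a target of proneural factors, stayed at or under 0.55 FPKM. Hes6, a partner in neuronal differentiation, had 5.11, 9.51 and 10.1 FPKM in BMP2+RSPO2, 10.0, 11.6 and 9.23 in BMP2, 13.2, 19.0 and 16.3 in RSPO2, and 10.9, 11.3 and 10.1 FPKM in Control. All RSPO2 libraries lay above all Control libraries, a difference of 0.53 ± 0.21 (SE, log2) that was not called (adjusted p = 1.00, limma). In BMP2+RSPO2 against RSPO2 it fell by 0.93 ± 0.21 (adjusted p = 0.0110); under both scalings it did not pass (adjusted p = 0.0563 and 0.0615). Cbfa2t2 and Cbfa2t3 are genes of transcriptional corepressors. Cbfa2t2 reached 4.65 FPKM in BMP2+RSPO2 replicate 1, beside 1.00 and 0.84 FPKM in replicates 2 and 3 of that arm. Cbfa2t3 reached 1.46 FPKM in BMP2+RSPO2 replicate 2.

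For RSPO2 against Control limma called none of the other members. An unadjusted p under 0.05 was held by 3 of 36 members, Neurog2 among them, and by 418 of all 11548 tested genes (3.62%). Prrx2 had 112, 98.3 and 90.6 FPKM in RSPO2, against 90.2, 64.5 and 62.9 FPKM in Control. All 3 RSPO2 libraries lay above all Control libraries, by a narrow margin, and the log2 change of 0.48 ± 0.20 (SE) was not called (adjusted p = 1.00, limma). Without the first replicates of all arms it was called at 0.56 (adjusted p = 0.0165). Hoxb9 had 7.17, 7.26 and 8.15 FPKM in RSPO2, against 4.78, 5.44 and 6.25 FPKM in Control, and its groups also did not overlap (log2 change 0.40 ± 0.14 SE, adjusted p = 0.992). Across all tested genes the arms did not overlap for 9.33%, and for 6 of the 36 members. The median change of the members was 0.07, against 0.01 over all tested genes.

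BMP2 alone called 0 of 36 members by limma, against 1.52% of all tested genes (0.511% higher and 1% lower). An unadjusted p under 0.05 was held by 9 of 36 members, and by 1147 of all 11548 tested genes (9.93%). The largest positive changes were those of Tbx2 at 0.87 ± 0.35, Pax3 at 0.42 ± 0.11 and Alx4 at 0.27 ± 0.10 (SE, log2), with adjusted p of 0.391, 0.122 and 0.285. Among the largest negative ones were those of Prrx2 at -0.65 ± 0.20 and Twist1 at -0.59 ± 0.24, with adjusted p of 0.198 and 0.418. Pax3 had 5.42, 6.06 and 5.68 FPKM in BMP2, against 3.63, 4.40 and 4.09 FPKM in Control. Every BMP2 library lay above every Control library, and Pax3 was called when BMP2+RSPO2 replicate 1, which is in neither arm, was left out of the shared spread (adjusted p = 0.0336, limma). The arms did not overlap for 10 of the 36 members, against 20.8% of all tested genes. With replicates 2 and 3 alone 5 members were called, 13.9%, against 8.34% of all tested genes: Tbx2 and Pax3 higher, and Prrx2, Twist1 and Alx1 lower. With the replicate number as a block, the members called were Tbx2, higher (adjusted p = 0.0301), and Prrx2, lower (adjusted p = 0.0189, limma), against 2.85% of all tested genes.

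The combination changed the most members against Control. BMP2+RSPO2 raised 3 members, Tbx2, Irx5 and Alx4, and lowered 8, among them Prrx2, Alx1, Six2, Irx1, Hoxa10, Meis2 and Mkx. These 11 of 36 make 30.6%, against 23% of all tested genes, so the share was not far from the background; of all tested genes 3.65% were higher and 19.4% lower. The arms did not overlap for 19 of the 36 members, against 44% of all tested genes. The median change of the 36 members was -0.24, close to the -0.26 of all tested genes. Under the scalings, which remove that shift, 4 members were higher and 2 lower (quantile) or 4 higher and 3 lower (median-of-ratios), the added higher one being Pax3 (log2 change 0.46 under both, adjusted p = 0.0351 and 0.0392, limma). Tbx2, Irx5, Alx4 and Irx1 were among those called under all 3, in the same directions. Without BMP2+RSPO2 replicate 1, 10 members were called, 3 higher and 7 lower, against 23.9% of all tested genes. The count was 5 without Control replicate 1, 6 without BMP2+RSPO2 replicate 2 and 7 without Control replicate 2. Of all tested genes 13.8%, 19.8% and 15.8% were called in those fits, in the same order.

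**Figure D3:**
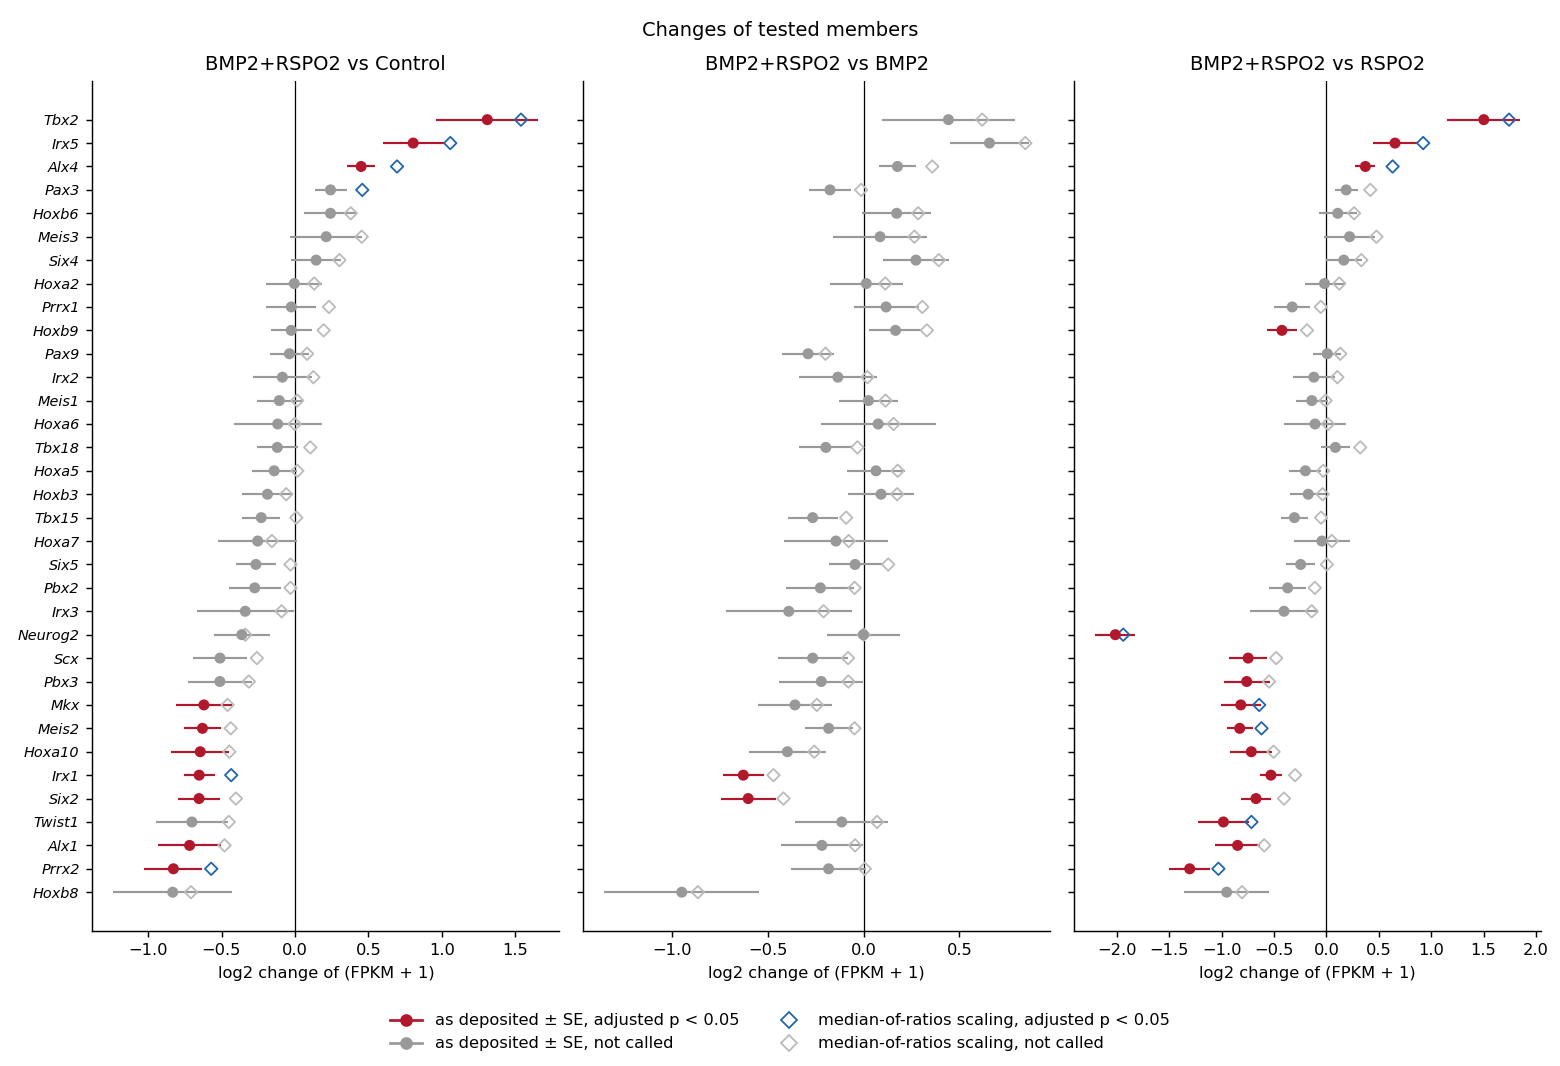
Log2 changes of (FPKM + 1) for 34 of the 36 tested members in BMP2+RSPO2 against Control, BMP2 and RSPO2 (filled points with SE bars, red where the adjusted p is under 0.05), with values after median-of-ratios scaling as open diamonds. Tbx2, Irx5 and Alx4 lie right of 0 against Control and RSPO2 on both scales, while Irx1 lies at -0.65 against Control as deposited and at -0.43 after scaling.

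Irx5, an Iroquois homeobox gene, rose in the combination. It had 21.7, 39.2 and 40.0 FPKM in BMP2+RSPO2, 17.5, 22.1 and 21.4 in BMP2, 18.2, 20.1 and 22.8 in RSPO2, and 18.4, 17.3 and 18.8 FPKM in Control. BMP2+RSPO2 replicate 1, the library that stands apart, was the low one of its arm, yet still above every Control library, while 1 RSPO2 and 1 BMP2 library lay above it. The log2 change was 0.80 ± 0.21 (SE) against Control (adjusted p = 0.0194), 0.66 ± 0.21 against RSPO2 (adjusted p = 0.0401) and 0.66 ± 0.21 against BMP2 (adjusted p = 0.0912, all limma). Without BMP2+RSPO2 replicate 1 Irx5 was called against BMP2 as well. The call against Control was lost when BMP2+RSPO2 replicate 2 or 3 or Control replicate 1 or 2 was left out (highest adjusted p = 0.0612). The call against RSPO2 held in 2 of the 12 fits that left out 1 library, those without BMP2+RSPO2 replicate 1 and without BMP2 replicate 1, and was lost without a filter on low values (adjusted p = 0.0727).

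Tbx2, a T-box repressor of limb and heart development, had 7.04, 17.5 and 16.8 FPKM in BMP2+RSPO2, 6.74, 11.2 and 10.2 in BMP2, 2.77, 3.66 and 5.62 in RSPO2, and 3.10, 5.48 and 5.54 FPKM in Control. Every library with BMP2, alone or combined, lay above every library without it. The change in the combination was 1.31 ± 0.35 against Control (SE, log2; adjusted p = 0.0219) and 1.502 ± 0.35 against RSPO2 (adjusted p = 0.0108, limma). The first replicate was the lowest of its arm in all 4 arms, and the call against Control was lost without BMP2+RSPO2 replicate 2 or 3 or Control replicate 1 (highest adjusted p = 0.0826).

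Alx4, an aristaless-like homeobox gene of skull and limb, had 14.97, 16.0 and 13.7 FPKM in BMP2+RSPO2, 13.4, 12.9 and 12.8 in BMP2, 11.8, 10.6 and 11.4 in RSPO2, and 11.5, 10.3 and 10.1 FPKM in Control. The BMP2+RSPO2 libraries lay above those of the other 3 arms, and the BMP2 libraries above those of RSPO2 and Control. The combination raised it by 0.45 ± 0.10 (SE, log2) against Control (adjusted p = 0.00854) and by 0.37 ± 0.10 against RSPO2 (adjusted p = 0.0174, limma). The call against Control held in all 12 fits that left out 1 library, and the call against RSPO2 was lost without BMP2+RSPO2 replicate 2 or RSPO2 replicate 2. Its relative Alx1 went the other way and fell by 0.72 ± 0.21 against Control (adjusted p = 0.0355). Alx1 had 11.1, 6.02 and 7.02 FPKM in BMP2+RSPO2, against 15.7, 12.4 and 12.5 FPKM in Control. That call was lost under both scalings and without a filter on low values (highest adjusted p = 0.142) and without any 1 of 7 libraries: any Control library, BMP2+RSPO2 replicate 2 or 3, BMP2 replicate 3 or RSPO2 replicate 2.

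**Figure D4:**
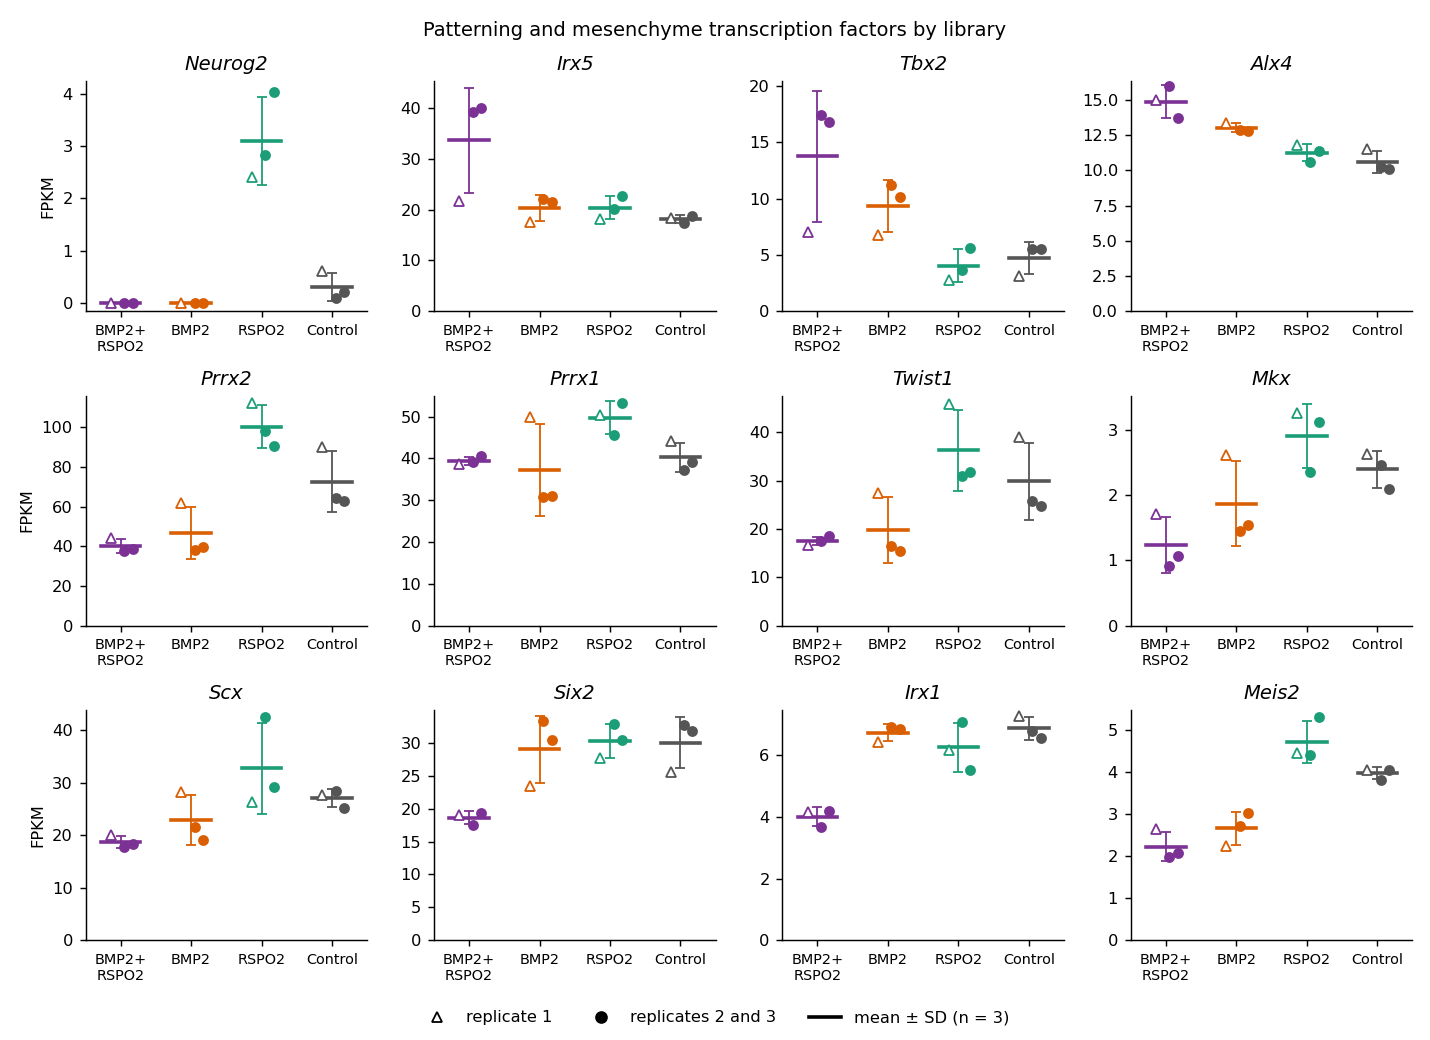
FPKM in each library for 12 members, with arms from left to right BMP2+RSPO2, BMP2, RSPO2 and Control; open triangles are first replicates, filled circles replicates 2 and 3, and bars the mean ± SD (n = 3). Neurog2 is above 0 only in RSPO2 and Control, Irx5 is at 39.2 and 40.0 FPKM in BMP2+RSPO2 replicates 2 and 3, and Six2, Irx1 and Meis2 are lower in BMP2+RSPO2 than in Control without overlap.

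The mesenchymal markers Prrx2 and Twist1 were lowest in the arms with BMP2. Prrx2 had 44.1, 37.4 and 38.4 FPKM in BMP2+RSPO2, 61.6, 38.1 and 39.7 in BMP2, 112, 98.3 and 90.6 in RSPO2, and 90.2, 64.5 and 62.9 FPKM in Control. Each library with BMP2 lay below each library without it. In the combination it fell by 0.83 ± 0.20 (SE, log2) against Control (adjusted p = 0.0144) and fell by 1.304 ± 0.20 against RSPO2 (adjusted p = 0.00125, limma). The call against Control was lost without Control replicate 1 (adjusted p = 0.0548) and under quantile normalisation (adjusted p = 0.0548), and the call against RSPO2 held under every alternative run.

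Twist1 had 16.7, 17.6 and 18.4 FPKM in BMP2+RSPO2, 27.5, 16.4 and 15.4 in BMP2, 45.9, 31.0 and 31.9 in RSPO2, and 39.1, 25.8 and 24.7 FPKM in Control. The first replicate was the highest of its arm in BMP2, RSPO2 and Control, and the BMP2+RSPO2 libraries lay below all libraries of RSPO2 and Control. Against RSPO2 Twist1 fell by 0.98 ± 0.24 (SE, log2; adjusted p = 0.0149), a call lost only without RSPO2 replicate 1 (adjusted p = 0.0567). Against Control the change of -0.70 ± 0.24 was not called (adjusted p = 0.0603), although it was with replicates 2 and 3 alone (-0.46, adjusted p = 0.00320, limma). With the replicate number as a block Twist1 was called against Control too (adjusted p = 0.0140, limma). Prrx1 averaged 39.4 ± 0.918 in BMP2+RSPO2, 37.2 ± 11.04 in BMP2, 49.8 ± 3.89 in RSPO2 and 40.2 ± 3.58 FPKM in Control (SD, n = 3 each) and was called in none of the 6 comparisons. Its change in BMP2+RSPO2 against Control was -0.02 ± 0.17. With replicates 2 and 3 alone Prrx1 was called in BMP2+RSPO2 against BMP2 (0.36, adjusted p = 0.0301) and against RSPO2 (-0.31, adjusted p = 0.0325, limma).

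Six2, which keeps kidney and craniofacial progenitors undifferentiated, had 19.0, 17.5 and 19.4 FPKM in BMP2+RSPO2, 23.4, 33.3 and 30.5 in BMP2, 27.6, 32.8 and 30.5 in RSPO2, and 25.6, 32.7 and 31.8 FPKM in Control. Only the combination was low: its libraries lay under all 9 others, while those of the other 3 arms overlapped. It fell by 0.65 ± 0.14 against Control (SE, log2; adjusted p = 0.0102, limma), a call that held in all 12 fits that left out 1 library but was not made under either scaling (highest adjusted p = 0.188). Six4, of the same family, was at 2.40, 1.21 and 1.18 FPKM in BMP2+RSPO2 and at 1.39, 1.34 and 1.17 FPKM in Control and was not called.

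Irx1, an Iroquois gene on another chromosome than Irx5, had 4.17, 3.67 and 4.21 FPKM in BMP2+RSPO2, 6.43, 6.92 and 6.87 in BMP2, 6.17, 7.09 and 5.52 in RSPO2, and 7.29, 6.78 and 6.57 FPKM in Control. The combination libraries lay below all 9 others, and no other arm stood apart. Irx1 fell by 0.65 ± 0.11 against Control (SE, log2; adjusted p = 0.00255), fell by 0.63 ± 0.11 against BMP2 (adjusted p = 0.0153) and fell by 0.53 ± 0.11 against RSPO2 (adjusted p = 0.00558, limma). After scaling the call against Control stayed (adjusted p = 0.0217 and 0.0246), and the other comparisons missed the threshold (highest adjusted p = 0.0541 against BMP2 and 0.0930 against RSPO2). Irx3, the neighbour of Irx5, had 8.93, 22.4 and 26.9 FPKM in BMP2+RSPO2, against 17.1, 26.8 and 25.1 FPKM in Control, and was called in no comparison.

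Among the TALE partners of HOX proteins, Meis2 was lower in both arms with BMP2. It had 2.63, 1.98 and 2.06 FPKM in BMP2+RSPO2, 2.24, 2.71 and 3.02 in BMP2, 4.45, 4.39 and 5.29 in RSPO2, and 4.05, 3.81 and 4.05 FPKM in Control, and no library with BMP2 reached the level of any library without it. In the combination it fell by 0.63 ± 0.13 against Control (SE, log2; adjusted p = 0.00657; 0.0634 and 0.0661 after scaling) and fell by 0.83 ± 0.13 against RSPO2 (adjusted p = 0.00128, limma), the second under every alternative run. Pbx3 fell against RSPO2 (-0.76 ± 0.22, adjusted p = 0.0290, limma) but not after either scaling. That call was also lost without RSPO2 replicate 1, BMP2+RSPO2 replicate 2 or 3, or a filter on low values. Meis3 and Meis1 were not called. Meis3 was at 8.50, 16.8 and 15.5 FPKM in BMP2+RSPO2 and at 9.45, 11.7 and 12.6 FPKM in Control. With replicates 2 and 3 alone it was called higher in BMP2+RSPO2 against Control (0.39, adjusted p = 0.0172), BMP2 (0.40, adjusted p = 0.0228) and RSPO2 (0.30, adjusted p = 0.0379, limma).

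Hoxa10, a factor of the posterior axis that also acts in bone, was the 1 Hox gene called against Control. It had 1.62, 2.92 and 3.72 FPKM in BMP2+RSPO2, against 5.53, 4.84 and 3.86 FPKM in Control, and fell by 0.64 ± 0.20 (SE, log2; adjusted p = 0.0403, limma). BMP2+RSPO2 replicate 1 was the lowest, and the call held in 2 of the 12 fits that left out 1 library, those without BMP2+RSPO2 replicate 3 or Control replicate 3. It was also lost under both scalings, without a filter on low values and with replicates 2 and 3 alone (highest adjusted p = 0.157). Hoxb9 had 4.32, 6.48 and 5.43 FPKM in BMP2+RSPO2, against 7.17, 7.26 and 8.15 FPKM in RSPO2. It fell by 0.42 ± 0.14 (adjusted p = 0.0477), a call that held in 2 of those 12 fits, without BMP2+RSPO2 replicate 2 or Control replicate 1. It was lost under both scalings, with a pseudocount of 0.1, without a filter on low values and with replicates 2 and 3 alone (highest adjusted p = 0.425), and held with the replicate block. Hoxb8 was at 0.78, 0.03 and 2.52 FPKM in BMP2+RSPO2, 2.17, 2.99 and 2.66 in BMP2, 2.19, 3.30 and 2.40 in RSPO2, and 1.08, 3.18 and 3.19 FPKM in Control. Its changes of -0.83 ± 0.40 against Control and -0.95 ± 0.40 against BMP2 were among the largest but were not called (adjusted p = 0.154 and 0.173, limma). The SD of Hoxb8 was 1.28 FPKM in BMP2+RSPO2 and 1.22 in Control, against 0.413 in BMP2 and 0.590 in RSPO2. The sum over all 38 Hox genes was 18.9 ± 2.84 in BMP2+RSPO2, 19.7 ± 0.371 in BMP2, 25.4 ± 1.17 in RSPO2 and 22.7 ± 1.37 FPKM in Control (SD, n = 3 each).

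Of the tendon factors, Mkx was called in the combination against Control and RSPO2, and Scx against RSPO2 alone. Mkx, a homeobox gene of tendon, had 1.72, 0.92 and 1.06 FPKM in BMP2+RSPO2, 2.62, 1.45 and 1.55 in BMP2, 3.26, 2.35 and 3.12 in RSPO2, and 2.64, 2.47 and 2.09 FPKM in Control. Its BMP2+RSPO2 libraries lay below those of RSPO2 and Control and overlapped BMP2, where the first replicate was high. The change was -0.62 ± 0.19 against Control (SE, log2; adjusted p = 0.0403; up to 0.164 after scaling) and -0.82 ± 0.19 against RSPO2 (adjusted p = 0.0116; 0.0515 and 0.0398 after scaling, limma). The call against Control was lost without any 1 of 7 libraries: any Control library, BMP2+RSPO2 replicate 2 or 3, BMP2 replicate 3 or RSPO2 replicate 3. Scx had 20.0, 17.8 and 18.4 FPKM in BMP2+RSPO2, 28.3, 21.6 and 19.1 in BMP2, 26.4, 42.6 and 29.3 in RSPO2, and 27.7, 28.5 and 25.2 FPKM in Control. Its BMP2+RSPO2 libraries lay below those of RSPO2 and Control and overlapped BMP2. It fell by 0.75 ± 0.18 against RSPO2 (adjusted p = 0.0140), though not after scaling (highest adjusted p = 0.0958), and was not called against Control (-0.51 ± 0.18, adjusted p = 0.0659) or BMP2 (-0.27 ± 0.18, adjusted p = 0.365, limma). Of 5 tendon markers in the table, Kera was listed at 0 throughout, Thbs4 and Col14a1 did not exceed 0.11 FPKM, Dcn was not called, and Fmod, a fibril-binding proteoglycan, fell by 1.37 ± 0.18 against Control (adjusted p = 0.000745).

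Against RSPO2, BMP2+RSPO2 changed 17 of 36 members, 3 higher (Tbx2, Irx5, Alx4) and 14 lower (among them Neurog2, Prrx2, Twist1, Alx1, Meis2, Mkx, Pbx3, Scx, Hoxa10, Six2, Irx1 and Hoxb9). That is 47.2%, against 26.1% of all tested genes (4.32% higher and 21.8% lower). Neurog2 was tested only through its RSPO2 libraries and is described above. Without it and Pax9, which reached 1 FPKM only in BMP2, 16 of 34 members, 47.1%, were called. The arms did not overlap for 22 of the 36 members, against 42.3% of all tested genes. The members' median change was -0.32, against -0.26 over all tested genes. After scaling 9 were called under each method, 4 higher and 5 lower (quantile) or 3 higher and 6 lower (median-of-ratios), and 8 passed under all 3, among them Tbx2, Irx5 and Alx4, which were higher, and Prrx2, Meis2 and Twist1, which were lower; Neurog2 is counted too. Without BMP2+RSPO2 replicate 1 the count was 16, and without RSPO2 replicate 1 it was 11. Of all tested genes 26.5% and 16.9% were called in those fits. Single libraries also decided Alx1 (lost without BMP2+RSPO2 replicate 2 or RSPO2 replicate 1) and Hoxa10 (lost without any RSPO2 library). In bulk RNA, fewer cells of a kind and less RNA per cell cannot be told apart.

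With RSPO2 added to BMP2, the share of members called as deposited was close to that of all tested genes. Against BMP2 the combination lowered Six2 and Irx1, 2 of 36 or 5.56%, against 4.38% of all tested genes (0.641% higher and 3.74% lower), and neither was called after scaling. Six2 fell by 0.60 ± 0.14 (SE, log2; adjusted p = 0.0446; 0.242 at most after scaling, limma). Its call was lost without any 1 of 9 libraries, namely each BMP2+RSPO2 library and replicates 2 and 3 of the other arms, and that of Irx1 without BMP2+RSPO2 replicate 2 or BMP2 replicate 2 or 3. The arms did not overlap for 5 of the 36 members, against 33.6% of all tested genes. With replicates 2 and 3 alone 8 members were called, 22.2% of those tested, against 21.8% of all tested genes. Among them Irx5 (0.84, adjusted p = 0.00165, limma), Tbx2, Meis3 and Prrx1 were higher, and Pax3, Irx1 and Six2 lower. With the replicate number as a block Irx5 was called higher too (0.66, adjusted p = 0.0342, limma), and Six2 and Irx1 lower. Of all tested genes 14.8% were called with that block.

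The interaction asks whether RSPO2 acted differently in the presence of BMP2. The 1 member of 36 that limma called was Neurog2, with a difference of -1.65 ± 0.27 (SE) on the log2(FPKM + 1) scale, beside 0.294% of all tested genes (0.00866% higher and 0.286% lower). Because Neurog2 was listed at 0 in all BMP2 libraries and was tested only through the 3 RSPO2 libraries, this value is its RSPO2 difference with the sign turned, and no interaction is read from it. Of the 36 members 4, or 11.1%, had an unadjusted p under 0.05, against 13% of all tested genes, and with Neurog2 left aside none was called. Prrx2 (-0.66 ± 0.28), Six2 (-0.62 ± 0.20) and Irx1 (-0.50 ± 0.15) had the next smallest p-values, with adjusted p of 0.357, 0.255 and 0.213. Tbx2 and Irx5 had the largest positive values, 0.64 ± 0.49 and 0.51 ± 0.29, with adjusted p of 0.577 and 0.477. With replicates 2 and 3 alone 4 members were called, 11.1%, against 9.60% of all tested genes. These were Irx5 (0.61, adjusted p = 0.0265), Prrx2 (-0.60, adjusted p = 0.0156), Six2 (-0.73, adjusted p = 0.0156, limma) and Neurog2.

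Genes that work beside the members were followed in lists. The other homeobox genes of skeletal patterning were 27, of which 14 were tested. In BMP2+RSPO2 against Control 3 rose and 2 fell, beside 3.65% of all tested genes higher and 19.4% lower. Their median change was 0.03, against -0.26 over all tested genes. Dlx3, a distal-less gene of bone and tooth, had 13.2, 18.8 and 16.3 FPKM in BMP2+RSPO2, against 3.55, 6.79 and 6.74 FPKM in Control (1.38 ± 0.22 SE, log2; adjusted p = 0.00235, limma). Dlx2 rose too, while Gsc fell by 1.14 ± 0.29 (adjusted p = 0.0174; 0.0502 after median-of-ratios scaling) and Msx1 fell by 0.43 ± 0.11 (adjusted p = 0.0232; not after scaling). Dlx5 was at 40.0, 40.1 and 40.1 FPKM in BMP2+RSPO2, against 11.5, 16.4 and 23.9 FPKM in RSPO2, and rose by 1.22 ± 0.23 in that comparison (adjusted p = 0.00399).

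ID proteins bind E proteins, the partners of bHLH factors such as TWIST1 and SCX, and so block them. Of 7 tested bHLH partners, 3 rose (Id1, Id2, Id3) and 4 fell (Id4 and the E-protein genes Tcf3, Tcf4 and Tcf12) in BMP2+RSPO2 against RSPO2. Of all tested genes 4.32% were higher and 21.8% lower in that comparison. Id1 had 5.34, 3.20 and 3.56 FPKM in BMP2+RSPO2, against 0.37, 0.18 and 0.46 FPKM in RSPO2 (1.89 ± 0.21 SE, log2; adjusted p = 0.000205, limma), and Tcf4 fell by 1.45 ± 0.30 (adjusted p = 0.00664). After scaling the falls of Tcf3 and Tcf12 were not called, nor was that of Id4 under quantile normalisation (adjusted p = 0.110), which left 3 higher and 1 lower there and 3 higher and 2 lower under median-of-ratios scaling, and Id2 was not called without BMP2+RSPO2 replicate 1 (adjusted p = 0.120). Of 4 tested partners of SIX2 and its relatives 1 changed, Eya4. It fell by 0.85 ± 0.21 in BMP2+RSPO2 against Control (adjusted p = 0.0171, and up to 0.0678 after scaling, limma), where 19.4% of all tested genes were lower. The 2 tested TALE partners, Pknox1 and Tgif1, were called in no comparison.

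Of 12 tested zinc finger and forkhead factors of mesenchyme, 2 rose (Foxc2, Gli1) and 3 fell (Osr1, Snai2, Foxf1) in BMP2+RSPO2 against Control. Of all tested genes 3.65% were higher and 19.4% lower there. Without BMP2+RSPO2 replicate 1 the falls were 6, and under either scaling 1. In both directions together, 23.9% of all tested genes were called without that library, and 14.1% and 14.2% under the scalings. Osr1, an odd-skipped factor of limb mesenchyme, had 13, 5.24 and 5.06 FPKM in BMP2+RSPO2, 9.40, 5.53 and 6.90 in BMP2, 39.7, 37.2 and 35.3 in RSPO2, and 26.4, 23.1 and 20.3 FPKM in Control. It fell by 1.58 ± 0.29 against Control in the combination (adjusted p = 0.00459) and fell by 1.57 ± 0.29 with BMP2 alone (SE, log2; adjusted p = 0.0247, limma). The RSPO2 libraries lay above those of Control, and both above all libraries with BMP2. The falls of Snai2 and Foxf1 did not pass after scaling. Of 10 tested osteoblast markers, 8 rose in the combination against Control (5 under quantile normalisation), with a median of 1.25.

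The first replicate of each arm differed from the other replicates in part of the members. Alx1, Alx4, Mkx, Pbx3, Prrx2 and Six4 were among those higher in the first replicate than in the mean of the other replicates in all 4 arms, which were 7 of 36 or 19.4%, against 20.5% of all tested genes. Hoxb3, Hoxb8, Irx3 and Tbx2 were lower in all 4 arms, 11.1% against 15%. The first replicates also differed in osteoblast markers. Dmp1 was at 0.16 against 27.1 and 34.8 FPKM in Control, and at 0.19 against 9.78 and 17.4 in RSPO2. In BMP2 it was at 4.25 against 233 and 191, and in BMP2+RSPO2 at 21.35 against 733 and 732 FPKM. Spp1, Sp7, Col1a1 and Col1a2 were also lowest in the first replicate of every arm, while Alpl, Ibsp, Bglap2, Runx2 and Sparc were not. The part of this in the members' levels was not tested. Of the endothelial markers, Cdh5 and Pecam1 were at 3.89 and 1.38 FPKM in BMP2+RSPO2 replicate 1, while Kdr was at 0.08 FPKM and Tek at 0. The part of that library's makeup in the members' levels was not tested. Counts without that library are given above for BMP2+RSPO2 against Control and against RSPO2.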

How the data were processed

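Poly(A)-selected stranded RNA libraries of 12 cultures were sequenced, per the labels' protocols. The authors deposited FPKM values, 1 per gene and library. Per the submitters' processing notes, cutadapt 1.10, FastQC 0.10.1, HISAT2 2.0, StringTie 1.3.4 and edgeR (no version or role given) were used with GRCm38 and mm10. The table's identifiers are those of the C57BL/6NJ annotation, so gene coordinates are those of RefSeq only. The authors' deposited p-value and q-value columns state no groups and were not used.

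FPKM carry no counts: low values showed no whole-read steps (the fullest bin of log ratios, 0.02 wide, held 2.08% to 4.32% of genes over 66 library pairs), so depth is unknown. FPKM were set to log2(FPKM + 1), and a gene entered the model when 3 or more libraries held 1 FPKM or more (11548 genes; 1 linear model of the 4 arms in limma 3.58.1, R 4.3.3; variance prior following the mean; 8 residual and 2.5 prior degrees of freedom). Tests were two-sided and adjusted over all tested genes by Benjamini-Hochberg in each of 6 comparisons, with calls at adjusted p under 0.05. The procedure was tested on simulated data with noise drawn independently for each gene and library. That simulation held no variation shared by replicate number and no library like BMP2+RSPO2 replicate 1, so it does not cover these features. BMP2+RSPO2, BMP2 and RSPO2 against Control share the Control libraries.

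The members, gene lists and tests were chosen with earlier results of these data known. Named genes are the given markers, members called in a comparison, the highest member of each family, the 3 largest changes in each direction, and up to 4 called genes of each list; other genes named, such as relatives, chromosome neighbours and untested members, were chosen after their values were seen. Companion genes are given as counts and medians, not as tests of lists. Alternatives were quantile normalisation, median-of-ratios scaling, pseudocount 0.1, no filter on low values, a replicate block, replicates 2 and 3 alone, and each library left out. A fall or rise in FPKM is relative to the library's total, and TATAA and CANNTG were searched for after the other motifs. Some called genes are not reported here and are counted but not named or drawn.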

Additional observations from a re-analysis of the deposited data

Results flagged for a closer look

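Neurog2 differed in its RSPO2 effect between cells with and without BMP2, by -1.65 on the log2(FPKM + 1) scale (limma interaction term). It was listed at 0 in all 6 libraries with BMP2, so the value is its RSPO2 difference with the sign turned. Neurog2 entered the model only because its 3 RSPO2 libraries reached 1 FPKM, so no interaction is read from the value. The difference was not called under quantile normalisation, median-of-ratios scaling or a pseudocount of 0.1 (highest adjusted p = 0.240, limma).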

How the results depend on the processing

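Direction held for every called member under every alternative run, and calls did not. Counts of called members are in the order RSPO2 and BMP2, each against Control, then BMP2+RSPO2 against Control, BMP2 and RSPO2, then the interaction: as deposited they were 1, 0, 11, 2, 17 and 1, each 1 being Neurog2, which was tested only through its RSPO2 libraries. Quantile normalisation gave 1, 0, 6, 0, 9 and 0, and median-of-ratios scaling gave 1, 0, 7, 0, 9 and 0; both remove the shift of the median gene in BMP2+RSPO2. A pseudocount of 0.1 gave 0, 0, 11, 2, 16 and 0. Without a filter on low values the counts were 1, 0, 8, 1, 13 and 1, over 21829 genes. Replicates 2 and 3 alone gave 2, 5, 14, 8, 18 and 4. Leaving out 1 library at a time gave 0 to 1, 0 to 1, 5 to 13, 0 to 2, 11 to 17 and 0 to 1. The cause of these moves was not tested. Over all tested genes, in the same order, the counts were 9, 175, 2656, 506, 3015 and 34 as deposited, 5, 170, 1626, 261, 1825 and 12 after quantile normalisation, 6, 165, 1638, 258, 1797 and 15 after median-of-ratios scaling, 26, 329, 3897, 1710, 4159 and 91 with the replicate block, and 195, 963, 3994, 2512, 4314 and 1109 with replicates 2 and 3 alone. Over all tested genes a pseudocount of 0.1 gave 0, 143, 2597, 539, 2936 and 31. No filter gave 6, 142, 2188, 306, 2555 and 23, over 21829 genes. Leaving out 1 library at a time gave 0 to 21, 65 to 403, 1595 to 2758, 60 to 709, 1847 to 3058 and 0 to 187. The labels give the arms the same replicate numbers. Deviations of same-numbered libraries correlated above 0.1 in 16 of 18 pairs (-0.12 to 0.63), against 12 of 36 pairs with different numbers (-0.45 to 0.35). Of 12 libraries, 10 correlated best with one of their own number. Libraries of the same number thus shared part of their variation, and the main model holds no term for the replicate number. Whether the numbers mark a batch was not tested. With the replicate number as a block the counts were 1, 2, 14, 4, 17 and 1. Silent members were 32 instead of 25 when the limit was under 0.1 FPKM in every library, and a filter of 0.5 FPKM would test 44 members instead of 36. Unknown depth limits every statement on genes under about 1 FPKM.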

Other observations

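Osr2, an odd-skipped relative of Osr1 in palate and limb, was too low to be tested. It had 0, 0.08 and 0.08 FPKM in BMP2+RSPO2, 0.11, 0.08 and 0 in BMP2, 2.51, 1.23 and 0.81 in RSPO2, and 0.33, 0.16 and 0.32 FPKM in Control. Its libraries thus fell in the same order of arms as those of Neurog2, with RSPO2 highest and both arms with BMP2 lowest. Promoter windows of silent members held GGCGCC in 7 of 24 cases and those of tested members in 2 of 23, against 17.8% for all tested genes; these are descriptions of sequence, with no test.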
